A study of Equus caballus with 24 samples.

Results

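The 12 long bone libraries were divided by their level of COL2A1, the gene of the type II collagen chain that makes up the fibrils of cartilage, into 5 cartilage-rich and 7 cartilage-poor libraries. The members were chosen by the measured COL2A1 level in CPM, the reads on COL2A1 scaled to the total reads counted on genes in the same library. A library was called cartilage-rich above 500 CPM and cartilage-poor below 100 CPM. These 12 libraries are part of a series of 24, in which the pituitary gland and the epiphysis (the end part of a long bone) of 6 female Debao ponies (DPs, a small breed) and 6 female Mongolian horses (MHs) were profiled by RNA sequencing, with 3 juveniles and 3 adults of each breed. The labels name the stage and not an age, and neither the bone, the depth of the piece nor its share of cartilage, bone and marrow. The cartilage-rich libraries were those of the adult DPs 1 and 3 (DPLBA1, DPLBA3), the juvenile DPs 2 and 3 (DPLBJ2, DPLBJ3) and the adult MH 1 (MHLBA1). The cartilage-poor libraries were those of the adult DP 2 (DPLBA2), the juvenile DP 1 (DPLBJ1), the adult MHs 2 and 3 (MHLBA2, MHLBA3) and the juvenile MHs 1, 2 and 3 (MHLBJ1 to MHLBJ3). All horses were female and none was given a treatment, and each RNA came from 30 mg of ground tissue, freed of ribosomal RNA before directional libraries were made.

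Cartilage is made by chondrocytes, which surround themselves with fibrils of collagen types II, IX and XI and with aggrecan, a large proteoglycan whose sulfated sugar chains hold water. In the growth plate between the end and the shaft of a growing long bone, chondrocytes divide in columns, enlarge into hypertrophic cells that make type X collagen, and are then replaced by bone. Bone itself is built by osteoblasts on type I collagen and removed by osteoclasts, and its cavities hold blood-forming or fatty marrow. The end of a long bone can also carry articular cartilage on its joint surface, so a piece of ground epiphysis may hold any of these tissues. In such bulk RNA, fewer cells of a type and less RNA per cell cannot be told apart.

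The rule left a wide gap. COL2A1 stood at 5614 CPM in DPLBA1, 15275 in DPLBA3, 4216 in DPLBJ2, 11745 in DPLBJ3 and 728 in MHLBA1. The 7 cartilage-poor libraries ranged from 1.55 CPM in MHLBA3 to 37.7 in DPLBA2, with a median of 5.46. MHLBA1 was thus the member just inside the upper limit and DPLBA2 the one just inside the lower limit, and no long bone library lay between them. Since COL2A1 chose the groups, and other cartilage genes share its libraries, all differences between the groups below are descriptions without a test.

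Total reads on genes ranged from 15814874 to 19515740 in the cartilage-rich libraries and from 11616518 to 27007342 in the cartilage-poor ones, and the medians were 18806885 and 19072287. Between 13598 and 13918 genes were detected in the first group and between 13004 and 14337 in the second. Mitochondrially encoded genes held 3.08 to 5.00% of the reads of the cartilage-rich libraries and 3.85 to 6.66% of those of the cartilage-poor ones.

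A pair of libraries stood apart. In MHLBA1, 39 genes that lay above 50 CPM and over 50 times higher than in any other long bone library took 39.45% of the reads. They include genes of digestive enzymes made by the exocrine pancreas, and a list of 15 pancreatic genes held 20.0% of the reads of MHLBA1 against at most 0.00238% in the other 11 long bone libraries. MHLBA1 is the single cartilage-rich library of the MHs, so the main counts and some of the list medians that moved are also given without it. Its levels below are scaled so that most genes match across libraries (TMM scaling), which raised its COL2A1 level from 728 to 1201 CPM. In DPLBA2, 16 genes with at least 50 reads in each of the other 11 long bone libraries had 0 reads, while no other library had such a gene. These 16 genes, BGLAP, the gene of the bone protein osteocalcin, among them, were also listed at 0 in the length-scaled values of DPLBA2.

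The classes were unevenly spread over the breeds. Of the 6 DP libraries 4 were cartilage-rich and of the 6 MH libraries 1 was, a difference that did not pass a two-sided Fisher's exact test (p = 0.242). By stage, 2 of 6 juvenile and 3 of 6 adult libraries were cartilage-rich (two-sided Fisher's exact test, p = 1). Breed and cartilage class are therefore partly the same split. The main counts, with some of the list medians and genes that moved, are also given within each breed. In the DPs 4 cartilage-rich libraries stood against 2 cartilage-poor ones, and in the MHs MHLBA1 stood alone against 5.

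After a filter on low counts, 14735 genes were compared. Levels are given as TMM-scaled CPM, and a difference is that between the group means of log2 CPM, with the standard error (SE) over the 12 libraries. A gene was counted as separated where every cartilage-rich library lay on the same side of every cartilage-poor library and the means differed by more than 2-fold. By this rule 97 genes (0.658% of those compared) were higher and 63 (0.428%) were lower in the cartilage-rich libraries, and the median difference of all genes was -0.02. Plain CPM without TMM scaling moved that median to -0.27 and gave 50 higher and 157 lower genes, so directions below are relative to the typical gene. Without MHLBA1, 410 of 15124 genes (2.71%) were higher and 217 (1.43%) lower, and these included 94 of the 97 and 60 of the 63. Within a breed or stage the scaled values stayed the same, so a gene separated over all 12 libraries could fail there by the limit of 2-fold alone. Without MHLBA1 the filter and the scaling were redone, so there it could also fail by the filter or by a narrow overlap. The counts of the 97 and 63 given for subsets therefore support nothing. Within the DPs alone 87 of the 97 and 47 of the 63 were separated, against a background of 590 higher (4.00%) and 626 lower (4.25%) genes in that comparison of 4 libraries with 2. Within the MHs alone, 87 of the 97 and 46 of the 63 were separated, against 1891 higher (12.8%) and 1812 lower (12.3%) genes. The 6 adults alone separated 85 and 53 of them, against 327 higher (2.22%) and 239 lower (1.62%) genes, and the 6 juveniles alone 94 and 61, against 1669 (11.3%) and 1174 (7.97%). Without the limit of 2-fold, 125 genes (0.848%) were higher and 118 (0.801%) lower in all cartilage-rich libraries.

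**Figure D1:**
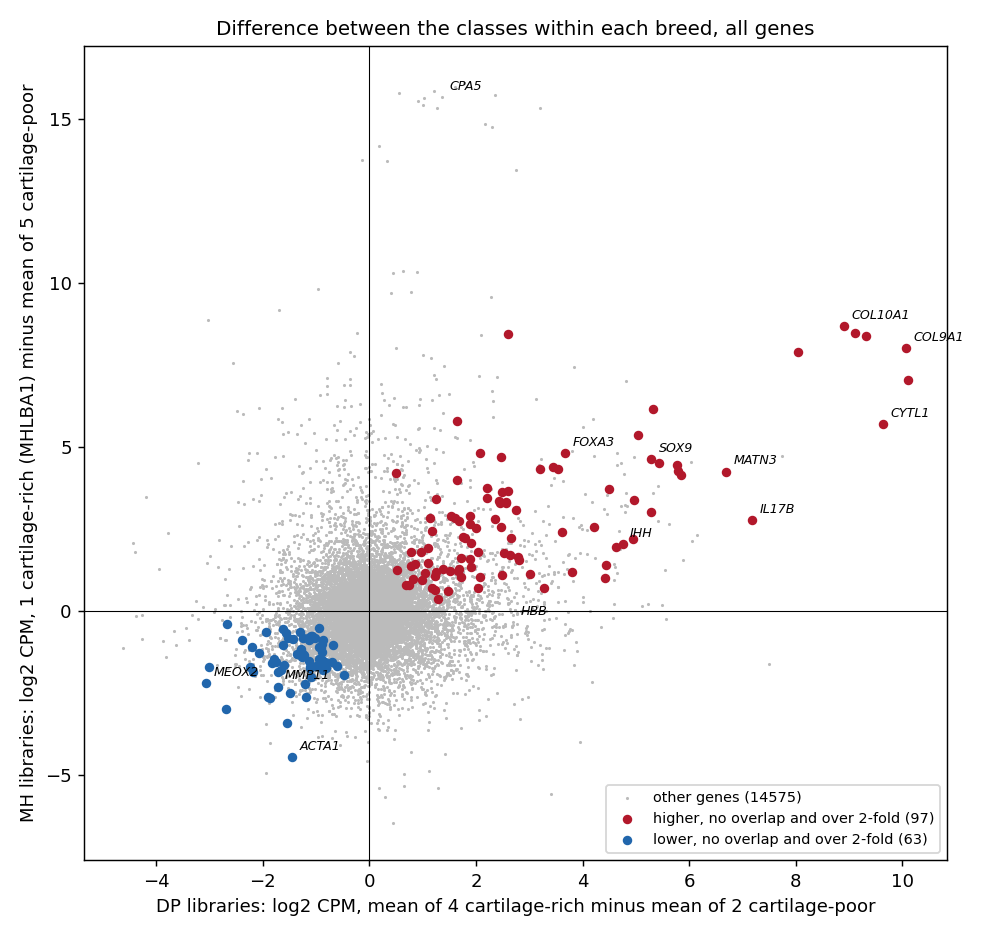
Difference in mean log2 CPM between cartilage-rich and cartilage-poor libraries within the DPs (horizontal axis, 4 libraries against 2) and within the MHs (vertical axis, MHLBA1 against 5) for each gene compared. Red points are the 97 genes higher and blue points the 63 genes lower in all 5 cartilage-rich libraries, and grey points are all other genes. The collagen genes COL9A1 and COL10A1 lie at the upper right, over 8 log2 units out on both axes, while the pancreatic gene CPA5 lies at 15.65 on the MH axis and 1.37 on the DP axis.

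The genes of the cartilage matrix formed most of the top of the list. Of 25 matrix genes listed, 20 passed the filter, 10 of these 20, COL2A1 itself included, were higher in all cartilage-rich libraries and none was lower, beside the background of 0.658% of all genes. Their median difference was 5.56 on the log2 scale, with 6.05 without MHLBA1, 5.00 within the DPs and 4.26 within the MHs. Summed over the 20 genes, the level was 17060 CPM in DPLBA1, 34190 in DPLBA3, 7948 in DPLBJ2, 32640 in DPLBJ3 and 2877 in MHLBA1. The cartilage-poor libraries ranged from 239 to 3404 with a median of 474, and DPLBJ1 (3404) and DPLBA2 (2822) came up to the level of MHLBA1. The sum thus overlapped between the groups, although the genes named next did not.

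The 3 chains of type IX collagen, which sits on the surface of the type II fibrils, showed nearly the same contrast as COL2A1. COL9A1 was at 516, 1126, 185, 1500 and 89.8 CPM in DPLBA1, DPLBA3, DPLBJ2, DPLBJ3 and MHLBA1, and between 0 and 3.05 (median 0.266) in the cartilage-poor libraries. COL9A2 was at 1052, 2286, 664, 3171 and 147 CPM in the same order, against 0.210 to 12.4 (median 0.924), and COL9A3 at 553, 1394, 242, 1577 and 42.9, against 0 to 4.01 (median 0.217). In each of the 3 genes MHLBA1 was the lowest of the cartilage-rich libraries and still above every cartilage-poor one. The differences were 10.06 ± 1.05 (SE) for COL9A1, 9.67 ± 1.05 for COL9A2 and 10.03 ± 1.14 for COL9A3, and COL2A1 itself differed by 10.08 ± 0.88. Within the DPs they were 10.08, 8.05 and 10.10, and within the MHs 8.02, 7.91 and 7.05. The 0 reads of COL9A3 in DPLBA2 stand beside the other zeros of that library, and the other cartilage-poor libraries held 2 to 54 reads of it.

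COL11A1 and COL11A2, 2 chains of the type XI collagen at the core of the same fibrils, did not separate the groups. COL11A1 was at 371 CPM in MHLBA1 and 462 to 4402 in the other cartilage-rich libraries, but DPLBA2 reached 845 CPM and DPLBJ1 179, while the 5 MH cartilage-poor libraries lay between 20.7 and 162. COL11A2 was at 361 to 4197 CPM in the cartilage-rich libraries, 2360 in DPLBJ1 and 837 in DPLBA2, against 134 to 257 in the MH cartilage-poor libraries. The differences were 3.97 ± 1.03 and 2.06 ± 0.91, and within the DPs they came to 2.13 and 0.35.

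Aggrecan and the cartilage oligomeric matrix protein COMP, which binds collagen fibrils, also stopped short of separation because of DPLBA2. ACAN was at 1400, 2051, 387, 1384 and 138 CPM in DPLBA1, DPLBA3, DPLBJ2, DPLBJ3 and MHLBA1, against 274 CPM in DPLBA2 and 0.621 to 17.7 in the other 6 cartilage-poor libraries. COMP was at 161 to 2724 CPM in the cartilage-rich libraries, against 247 in DPLBA2, 101 in MHLBA3 and 3.11 to 37.8 in the rest. Both genes were therefore lower in MHLBA1 than in the cartilage-poor DPLBA2. CHAD, the gene of chondroadherin, a leucine-rich protein that binds type II collagen, overlapped in the same way, with 771 CPM in DPLBJ1 and 478 in DPLBA2 against 95.3 in MHLBA1.

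Proteins that tie aggrecan and collagen into the network were separated. HAPLN1, the link protein that fastens aggrecan to hyaluronan, was at 236, 148, 45.9, 467 and 38.1 CPM in DPLBA1, DPLBA3, DPLBJ2, DPLBJ3 and MHLBA1, against 0.355 to 8.27 (median 0.977). MATN3, the gene of the adaptor protein matrilin-3, was at 409, 381, 24.5, 485 and 22.2 CPM, against 0.488 to 3.65 (median 1.12). CNMD (listed under its older symbol LECT1), which encodes chondromodulin, an inhibitor of vessel growth in cartilage, was at 1012, 1149, 176, 1537 and 117 CPM, against 2.59 to 21.4 (median 7.02). The lowest cartilage-rich value was again that of MHLBA1 in all 3 genes. The differences were 6.36 ± 0.90, 6.60 ± 1.09 and 6.15 ± 0.87.

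Smaller secreted products of chondrocytes were also separated. CYTL1, the gene of a cytokine-like protein of cartilage, was at 189, 289, 60.5, 35.1 and 6.87 CPM in the 5 cartilage-rich libraries, while no cartilage-poor library had more than 3 reads of it, so that its fitted difference of 8.83 ± 0.96 depends on the prior count. CLEC3A, a C-type lectin of cartilage, had medians of 132 and 0 CPM in the 2 groups, differed by 9.67 ± 0.71 and had at most 8 reads in a cartilage-poor library, those of DPLBA2. SCRG1, a gene found through its response in scrapie and active in chondrocytes, was at 181, 256, 74.8, 200 and 35.6 CPM against 0.290 to 5.59 (5.83 ± 0.73), and CHADL, a relative of chondroadherin, differed by 5.00 ± 0.87. PRG4, which lubricates the joint surface, CILP2 and CRTAC1 had differences below 0 (-1.11 ± 1.30, -0.15 ± 0.97 and -0.01 ± 0.57), and the matrix genes MATN1, EPYC and UCMA had too few reads to be compared, with at most 99 in any library. MATN4 and CILP, the remaining members, differed by 1.94 ± 0.67 and 1.87 ± 0.75 with overlapping groups.

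**Figure D2:**
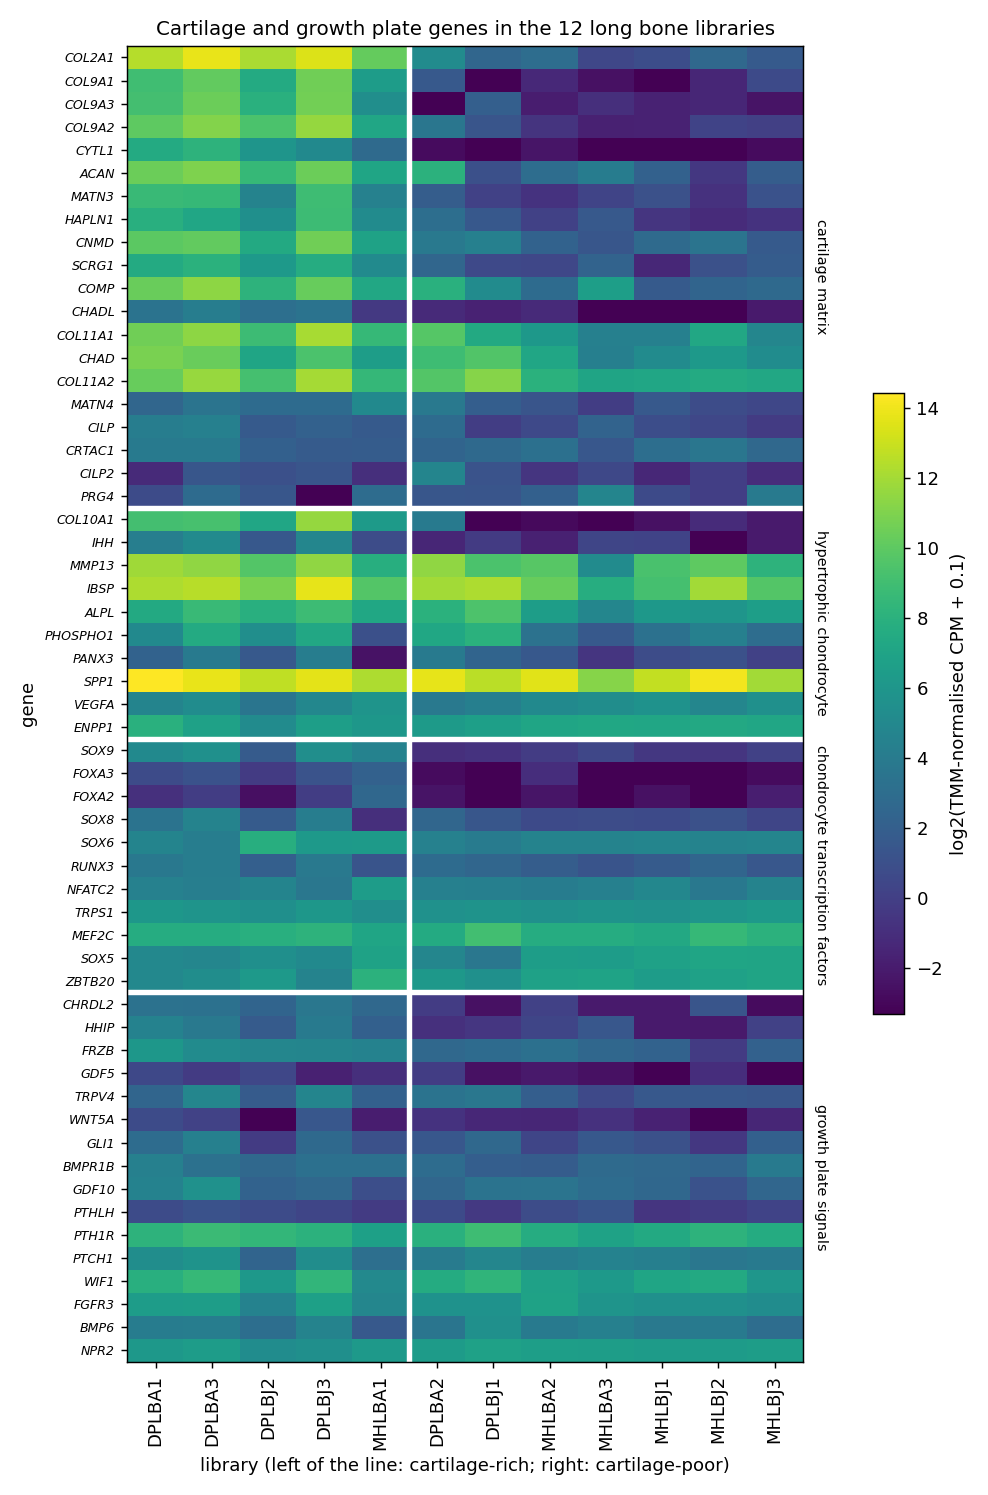
Level of genes of the cartilage matrix, hypertrophic chondrocytes, chondrocyte transcription factors and growth plate signals (rows) in the 12 long bone libraries (columns, cartilage-rich on the left), as log2 of TMM-scaled CPM plus 0.1. The rows of the type II, IX and X collagen genes are high in the 5 left columns only, whereas COL11A1, COL11A2, ACAN, COMP and CHAD are also high in DPLBA2 or DPLBJ1.

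Length-scaled values (RPKM, reads scaled to gene length and to library size) allow levels to be set beside each other between genes. In the cartilage-rich libraries the mean RPKM of COL2A1 was 1238, that of COL9A2 453, COL10A1 348, COL9A3 300 and COL9A1 190, while COL11A1 and COL11A2 were at 266 and 291. In the cartilage-poor libraries the means were 1.44 for COL2A1, 0.739 for COL9A2, 0.801 for COL10A1, 0.281 for COL9A3 and 0.200 for COL9A1, but 25.0 for COL11A1 and 83.8 for COL11A2. COL1A2, a chain of the type I collagen of bone, had mean RPKM of 2549 and 4145 in the 2 groups, so that even in the cartilage-rich libraries this bone collagen chain exceeded COL2A1 per length. This held in each of them, with RPKM of 1631, 4545, 1032, 5277 and 258 for COL1A2 in DPLBA1, DPLBA3, DPLBJ2, DPLBJ3 and MHLBA1 against 926, 2489, 667.5, 1984 and 123 for COL2A1.

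**Figure D3:**
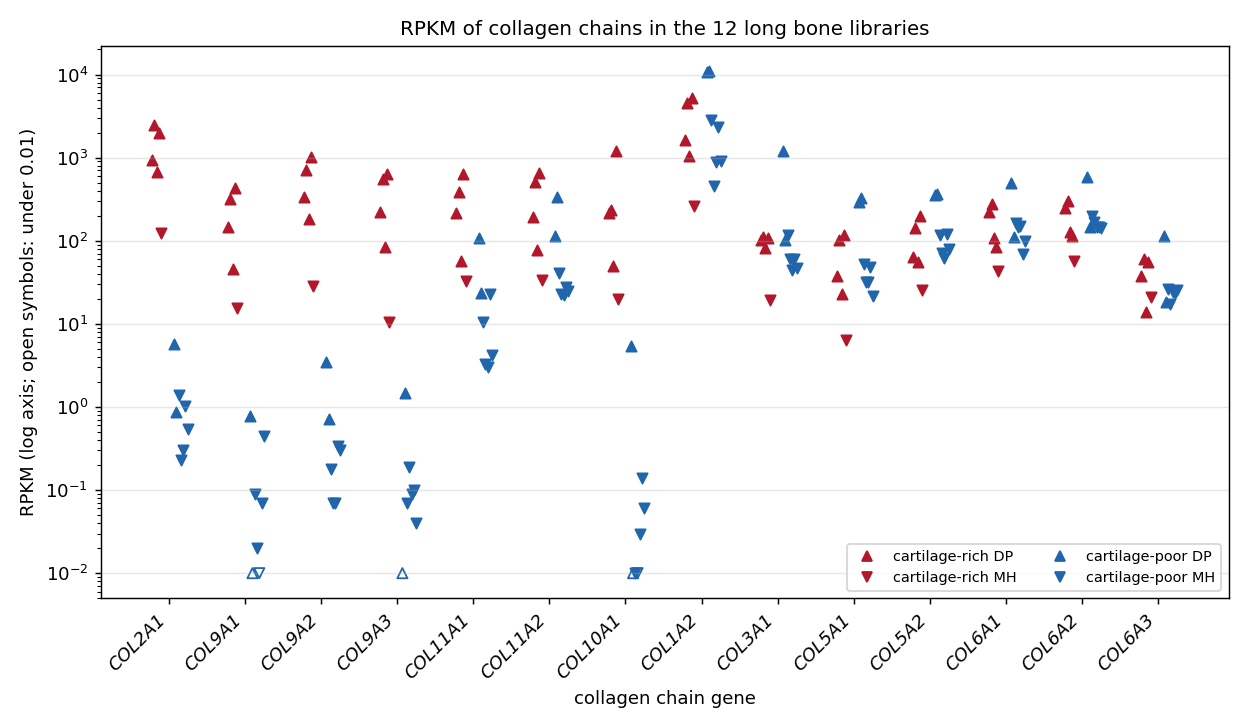
RPKM (log axis) of 14 collagen chains in each long bone library, with cartilage-rich libraries in red and cartilage-poor libraries in blue, upward triangles for DPs and downward triangles for MHs, and open symbols for values below 0.01. The 2 colours are apart for COL2A1, COL9A1, COL9A2, COL9A3 and COL10A1 and overlap for COL11A1, COL11A2 and the collagens of bone and connective tissue such as COL1A2 and COL3A1.

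COL10A1, the collagen chain made by hypertrophic chondrocytes, had the widest difference of all separated genes with a symbol. It was at 547 CPM in DPLBA1, 605 in DPLBA3, 145 in DPLBJ2, 3074 in DPLBJ3 and 82.6 in MHLBA1, against 15.3 in DPLBA2 and 0 to 0.355 in the other 6 cartilage-poor libraries. The groups were apart by 10.24 ± 1.32 on the log2 scale, 10.85 without MHLBA1, 8.90 within the DPs and 8.69 within the MHs. These other 6 libraries had 0 to 8 reads of it, so the size and rank of the difference depend on the prior count. COL2A1 (10.08), COL9A1 (10.06) and COL9A3 (10.03) lay within its SE. Within the DPs COL9A3 (10.10) and COL9A1 (10.08) were among the genes that differed more. Of 10 genes listed for hypertrophic chondrocytes, 2 (COL10A1 and IHH) were separated, both higher, beside 0.658% of all genes. IHH was separated with TMM scaling and not in plain CPM or RPKM. The median difference of the list was 1.04, but 0.38 within the DPs and -0.29 within the MHs. MMP13, a collagenase of hypertrophic cartilage that osteoblasts make too, was at 2868 CPM in DPLBA3 and 2876 in DPLBA2, and SPP1, the gene of osteopontin, which bone cells also make, was highest in DPLBA1 (22050 CPM) and MHLBJ2 (17670). Both thus overlapped widely between the groups. The same held for IBSP, a bone matrix protein that nucleates mineral, with 816 to 14070 CPM in the cartilage-rich libraries and 217 to 4855 in the cartilage-poor ones.

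Among the transcription factors, SOX9, the master regulator of chondrocytes, was separated. It was at 35.1 CPM in DPLBA1, 47.3 in DPLBA3, 3.31 in DPLBJ2, 44.6 in DPLBJ3 and 23.0 in MHLBA1, against 0.416 to 1.26 (median 0.652), a difference of 4.81 ± 0.73. SOX9 was lowest in DPLBJ2 here, while COL2A1 was lowest in MHLBA1. FOXA3, a forkhead factor related to the FOXA2 of hypertrophic chondrocytes, was the other separated member of the 11, with 0.758 to 4.41 CPM against 0 to 0.404 (3.75 ± 0.49). MHLBA1 was the highest library for FOXA3 (RPKM 2.21, at most 1.85 elsewhere) and for FOXA2 (3.43, at most 0.79 elsewhere). The part of its pancreatic reads in these values and in its SOX9 level was not tested. The SOX9 partners SOX5 and SOX6 did not follow: SOX5 was at 28.7 to 45.02 CPM in the 4 DP cartilage-rich libraries, 118 in MHLBA1 and 90.5 to 141 in the 5 MH cartilage-poor ones, and SOX6 was at 18.3 to 228 CPM against 16.9 to 27.4. Of the other abundant members, MEF2C, ZBTB20 and TRPS1 differed by -0.30, -0.68 and -0.03 with overlapping groups. Among all genes 0.658% were separated as higher, and the median of this list was 0.99.

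Of 18 signals and receptors of the growth plate that were compared, 4 were separated, all higher, against 0.658% of all genes, with a median difference of 0.64 for the list and -0.21 within the MHs. IHH, the Indian hedgehog ligand of cells entering hypertrophy, was at 18.9, 36.3, 2.83, 28.1 and 1.61 CPM in DPLBA1, DPLBA3, DPLBJ2, DPLBJ3 and MHLBA1, against 0 to 1.19 (median 0.277), a difference of 4.44 ± 1.03. HHIP, which binds hedgehog ligands and is induced by them, was at 23.4, 14.3, 3.31, 16.04 and 4.33 CPM against 0.133 to 2.73 (3.75 ± 0.73). FRZB, a secreted antagonist of WNT ligands first found in cartilage, was at 67.6, 38.0, 28.2, 27.1 and 23.6 CPM against 0.754 to 9.06 (2.87 ± 0.50), and CHRDL2, an antagonist of bone morphogenetic proteins, at 5.24 to 13.0 CPM against 0.0462 to 2.48 (4.21 ± 0.63). IHH and HHIP overlapped between the groups in plain CPM and in RPKM, which left 2 of the 4 separated, FRZB and CHRDL2. For IHH and HHIP the margin between MHLBA1 or DPLBJ2 and the highest cartilage-poor library was under 1 CPM. The hedgehog receptor PTCH1 and the hedgehog-responsive factor GLI1 were not separated (0.19 ± 0.70 and 0.94 ± 0.89). Nor were PTHLH, the parathyroid hormone-like ligand that holds back hypertrophy (0.32 ± 0.35), its receptor PTH1R (0.24 ± 0.42), the growth-restraining receptor FGFR3 (0.03 ± 0.52) or NPR2, the receptor of C-type natriuretic peptide (-0.60 ± 0.23).

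In the wider WNT list of 43 genes, 3 were separated and higher, FRZB, SFRP5 and WNT11, against 0.658% of all genes, and the median was -0.03. In plain CPM and in RPKM SFRP5 and WNT11 overlapped, and FRZB alone was separated. SFRP5, another secreted WNT antagonist, was at 45.8, 40.3, 7.997, 10.1 and 3.82 CPM in DPLBA1, DPLBA3, DPLBJ2, DPLBJ3 and MHLBA1, against 0.210 to 3.10 (3.55 ± 0.81). WNT11, a ligand of the non-canonical branch, was at 4.92 to 25.7 CPM against 0.371 to 4.71 (2.47 ± 0.57), with MHLBA1 just above DPLBA2. The 4 most abundant members, RSPO3, WIF1, LRP4 and SFRP4, had differences of -0.49, 0.10, -0.77 and -1.36 with overlapping groups.

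The enzymes that build chondroitin sulfate, the sugar chains of aggrecan, were nearly level between the groups. Of 22 compared, 2 were separated, both higher, beside 0.658% of all genes, and the median was 0.46. Both overlapped in plain CPM and in RPKM, which left 0 separated. XYLT1, which starts the chain by adding xylose to the core protein, was at 32.2, 27.7, 17.9, 30.5 and 19.3 CPM in DPLBA1, DPLBA3, DPLBJ2, DPLBJ3 and MHLBA1, against 2.97 to 13.0 (1.73 ± 0.31). PAPSS1, which makes the sulfate donor, was at 79.5 to 98.0 CPM against 31.1 to 68.6 (1.08 ± 0.17). SLC26A2, the sulfate transporter of chondrocytes, was not separated (0.52 ± 0.69), and neither were CHST11 (0.92 ± 0.21), which sulfates the chain, and CSGALNACT1 (0.59 ± 0.32), which extends it.

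Of 38 genes for folding, crosslinking and secretion of collagen, 1 was separated and higher, beside 0.658% of all genes. COLGALT2, which attaches galactose to hydroxylysine of collagen, was at 149 CPM in DPLBA1, 82.6 in DPLBA3, 5.31 in DPLBJ2, 80.8 in DPLBJ3 and 11.1 in MHLBA1, against 0.355 to 1.11 (5.72 ± 0.95). Its relative COLGALT1, at 10.5 to 42.3 against 16.4 to 39.7 CPM, did not differ beyond its SE (0.21 ± 0.40). The median of the list was 0.21 over all 12 libraries and -0.21 within the DPs, where 7 members were lower in all 4 cartilage-rich libraries, against 4.25% of all genes. P4HB, a subunit of the prolyl hydroxylase and a general protein disulfide isomerase, was at 4658 CPM in MHLBA1 and 477 to 1286 elsewhere, beside the pancreatic reads of that library, whose part in this value was not tested.

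The genes of bone cells did not separate the groups. None of 20 osteoblast genes was separated, the median difference was -0.20, and it became 0.36 without MHLBA1 and 0.07 without DPLBA2. Within the DPs the median was -1.27 and 7 of the 20 were lower in all 4 cartilage-rich libraries, against 4.25% of all genes. COL1A2 was at 8709 CPM in DPLBA1, 24420 in DPLBA3, 6361 in DPLBJ2 and 27940 in DPLBJ3, below the 63830 CPM of DPLBA2 and the 63340 of DPLBJ1, but it was at 2260 in MHLBA1 and 2226 to 14230 in the cartilage-poor MHs. SPARC, a collagen-binding bone protein, was likewise higher in the cartilage-poor DPs, with 9662 and 12970 CPM in DPLBA2 and DPLBJ1 against 1638 to 6807 in the cartilage-rich DPs. In the DPs, then, the 2 cartilage-poor libraries were highest in both of these bone matrix genes, while the cartilage-poor MHs overlapped with the cartilage-rich libraries.

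Genes of osteocytes, the cells embedded in bone, had a median difference of -0.02 over 9 genes, with none separated. DMP1, an osteocyte protein that controls mineral, was at 494 to 4659 CPM in the cartilage-rich libraries and 697 to 3339 in the others. None of 20 osteoclast genes was separated (median 0.21, and -0.50 within the MHs). Nor was any of 6 genes of the RANKL system that controls osteoclasts (median 0.36, and -0.06 within the MHs). The bone-resorbing protease gene CTSK was at 234 to 1253 against 98.4 to 1320 CPM, and TNFRSF11B, whose product osteoprotegerin blocks RANKL, at 20.3 to 170 against 17.1 to 31.5 CPM.

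Among the proteases MMP11 was lower in every cartilage-rich library. It encodes stromelysin-3, a matrix metalloproteinase of remodelling connective tissue, and was at 5.17, 10.3, 6.69, 6.43 and 5.52 CPM in DPLBA1, DPLBA3, DPLBJ2, DPLBJ3 and MHLBA1, against 19.7 to 37.6 (median 27.1). The difference was -1.97 ± 0.22, with -1.72 within the DPs and -2.30 within the MHs. It was the only separated member of 37 matrix metalloproteinases, ADAMTS proteases and their inhibitors, whose median was -0.32 (-0.79 within the DPs). Among all genes 0.428% were separated as lower, which is the background also for the lists that follow here. Of 12 small leucine-rich proteoglycans, PODN, the gene of podocan, was separated and lower, at 9.14 to 18.4 against 22.1 to 42.9 CPM (-1.11 ± 0.25). FMOD and PRELP, 2 collagen-binding members found in cartilage, differed by 3.33 ± 0.95 and 2.73 ± 0.86, and each of them overlapped through DPLBA2 and, for PRELP, DPLBJ1 and MHLBA3. Among 28 other collagens, COL6A5 was separated and lower (-1.83; under 2-fold on log2(RPKM + 1)), though only just, since MHLBA1 and DPLBJ1 were both at 0.594 CPM, and COL3A1 of soft connective tissue stood at 7545 CPM in DPLBA2 against 180 to 633 in all other libraries.

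Genes of neutrophils overlapped between the groups. Neutrophil genes had a median difference of 3.38 over 21 genes and none was separated, but without MHLBA1 the median was 4.14 and 13 of 21 were higher in every cartilage-rich library, against 2.71% of all genes. Within the DPs the median was 3.68. LTF, the gene of the granule protein lactoferrin, was at 845 CPM in DPLBA1, 543 in DPLBA3, 3527 in DPLBJ2, 696 in DPLBJ3 and 37.5 in MHLBA1, against 497 in DPLBA2, 37.6 in MHLBJ2 and 0 to 6.16 in the other 5 cartilage-poor libraries. S100A9, a subunit of the neutrophil protein calprotectin, was at 384 to 2677 CPM in the cartilage-rich DPs, 29.8 in MHLBA1, 238 in DPLBA2 and 36.6 in MHLBJ2, and between 1.11 and 2.75 in the rest. In the DPs the summed neutrophil level was higher in the cartilage-rich libraries, but DPLBA2 (2436 CPM) came near DPLBA3 (3060), while DPLBJ1 stood at 472. Neutrophil RNA was low in most MHs of either class, and its part in the other differences was not tested.

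The erythroid genes were carried by the 2 juvenile DPs. Their sum over 18 genes was 9281 CPM in DPLBJ2 and 5542 in DPLBJ3, against 33.5 to 64.4 in the other 3 cartilage-rich libraries, 276 in DPLBA2 and 50.4 to 59.4 in the other cartilage-poor libraries. HBB, a chain of haemoglobin, had 79427 reads in DPLBJ2, 39999 in DPLBJ3 and 2694 in DPLBA2, 0 in DPLBA1 and DPLBJ1, and 3 to 134 elsewhere. The median difference of the list was 2.60 with none separated, but -1.12 among the adults and -0.30 within the MHs. The cell cycle genes shared part of this pattern. Their sum was 4131 CPM in DPLBJ2 and 3948 in DPLBJ3, 1345 in DPLBA2, 1164 in DPLBA1 and 373 to 894 in the rest, and the 28 genes had a median difference of 1.91 (1.03 within the DPs and -0.10 within the MHs) with none separated. MHLBA1, cartilage-rich by the rule, had the lowest sum of the cell cycle genes of all 12 libraries.

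Other blood lineages gave smaller or mixed differences. The median was 0.84 over 17 monocyte and macrophage genes, 1.75 over 10 megakaryocyte and platelet genes and 0.19 over 19 genes of T and NK cells, with none separated. The monocyte and macrophage median was -0.57 within the MHs. Without MHLBA1, 5 of these 17 genes were higher in every cartilage-rich library, against 2.71% of all genes. Among 17 B cell genes (median 0.83), POU2AF1, a coactivator of antibody genes, was separated and higher, at 0.849 to 9.72 against 0.149 to 0.739 CPM (2.56 ± 0.73), but it overlapped in plain CPM and in RPKM. EBF1, a factor of early B cells that marrow stromal and fat cells also express, was separated and lower, at 7.21 to 12.3 against 15.4 to 137 CPM (-1.71 ± 0.41). Among all genes 0.658% were separated as higher and 0.428% as lower. TNFRSF17, the receptor BCMA of plasma cells, which was on no list and was picked after its values were seen, was also separated and higher (2.97).

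**Figure D4:**
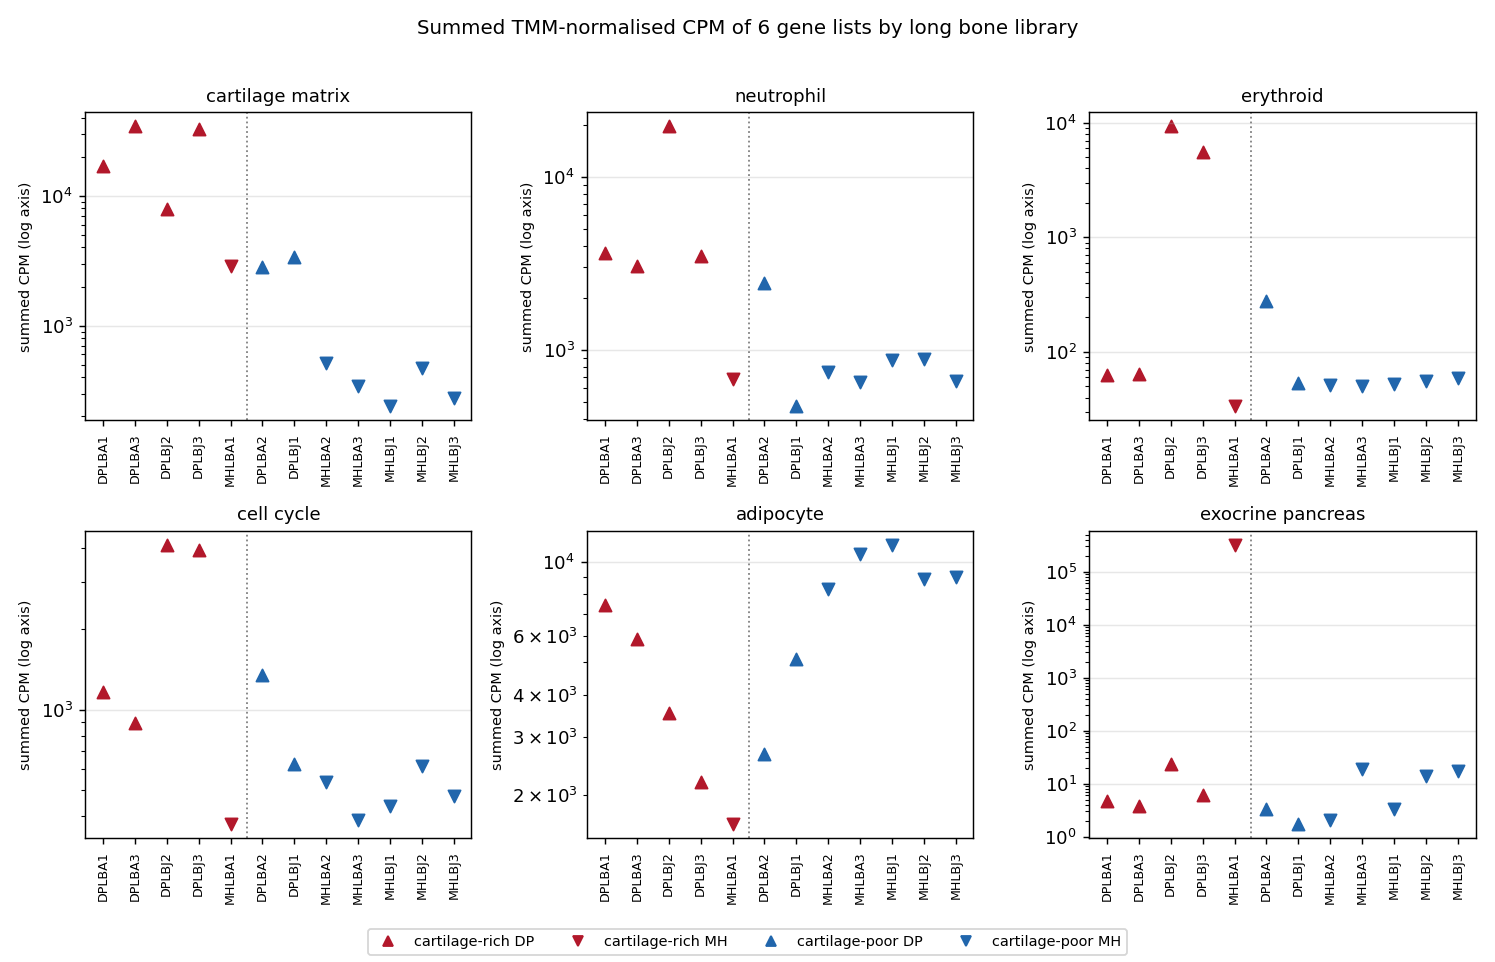
Summed level (TMM-scaled CPM, log axis) of 6 gene lists in each of the 12 long bone libraries. The sums of the cartilage matrix genes are highest in 4 DP libraries (7948 to 34190 CPM), those of the erythroid genes in DPLBJ2 and DPLBJ3 only, and the cartilage-poor MH libraries share a low level of both.

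Fat genes overlapped between the classes. The median of 23 adipocyte genes was -1.07 with none separated, and it was 0.38 within the DPs and -2.10 within the MHs. FABP4, the fatty acid binding protein of adipocytes, was at 4469, 3570, 2015 and 1222 CPM in the cartilage-rich DPs, 1623 and 3087 in the cartilage-poor DPs, 795 in MHLBA1 and 4437 to 6280 in the cartilage-poor MHs. MHLBA1 was the lowest of all 12 libraries for it. The 13 genes of smooth muscle and pericytes all had a difference below 0 (median -0.95), and 15 of 19 endothelial genes did (median -0.51), with none separated in either list. PECAM1, an adhesion protein of vessels, was at 208 to 516 CPM against 299 to 1088.

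The skeletal muscle genes were high in 2 of the cartilage-poor libraries. Their sum was 641 CPM in MHLBA3 and 825 in MHLBJ1 against 16.6 to 94.2 in the other 10 libraries, and the median difference of 20 genes was -1.71, but 0.38 within the DPs. ACTA1, the actin of skeletal muscle, was the separated member, beside 0.428% of all genes separated as lower. ACTA1 had the largest lower difference among the separated genes with a symbol (-3.53 ± 1.15). It was at 0.227 to 0.345 CPM in the 5 cartilage-rich libraries, at 83.1 in MHLBA3 and MHLBJ1, and at 0.416 to 3.99 in the other 5. Its separation thus rested on low values on both sides, and its size on these 2 libraries.

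**Figure D5:**
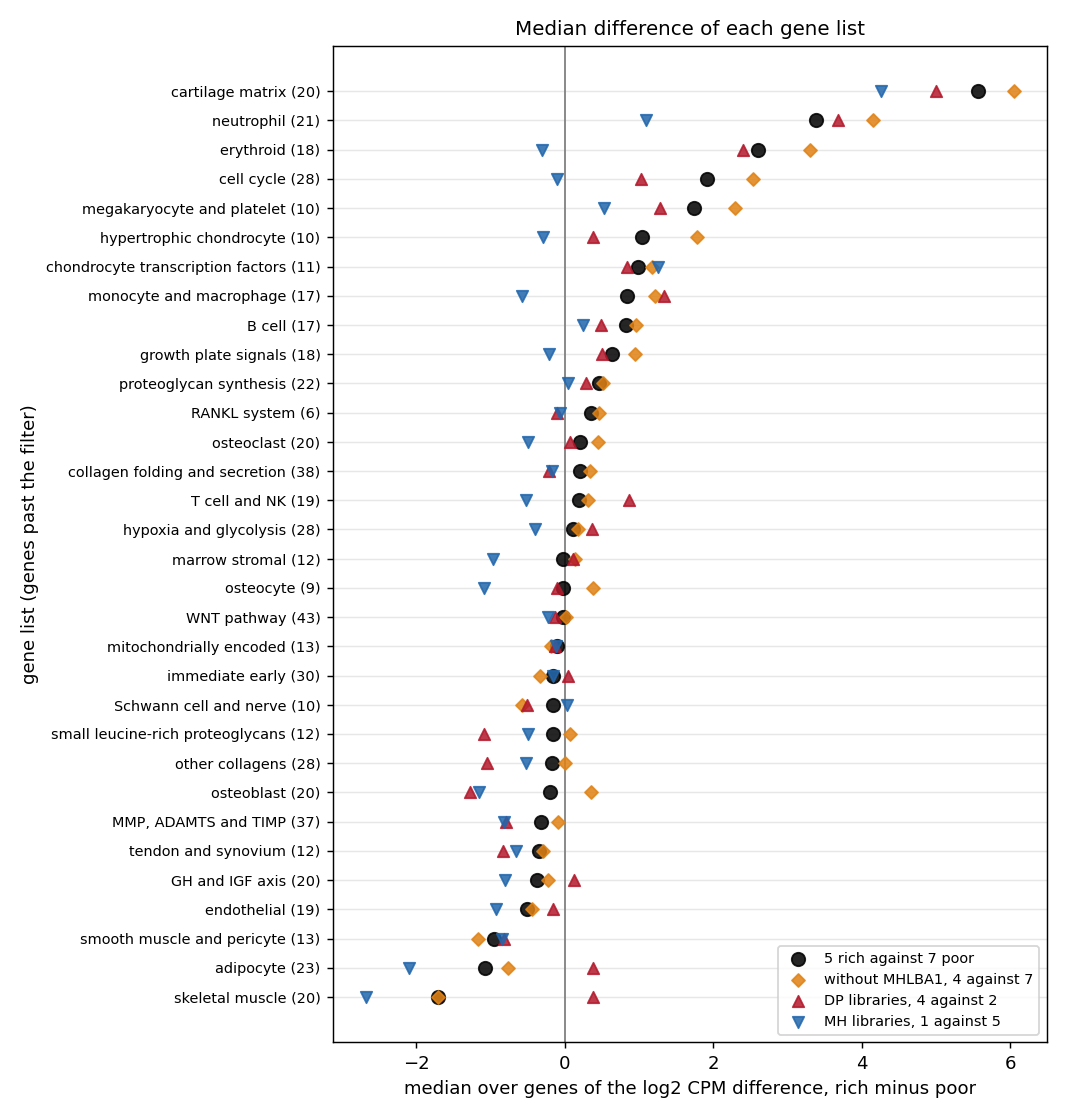
Median difference in log2 CPM (cartilage-rich minus cartilage-poor) of the members of each gene list, for all 12 libraries (black circles), without MHLBA1 (orange diamonds), within the DPs (red upward triangles) and within the MHs (blue downward triangles). The cartilage matrix list is above 4 in all 4 settings, whereas the erythroid, cell cycle, adipocyte and skeletal muscle lists change sign between settings.

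The remaining lists lay near the median of all genes or overlapped. No member was separated among 12 marrow stromal genes (median -0.02), 12 of tendon and synovium (-0.35), 10 of Schwann cells and nerve (-0.15), 20 of the growth hormone and IGF axis (-0.37), 28 of hypoxia and glycolysis (0.11) and 13 mitochondrially encoded genes (-0.11). The median of the growth hormone and IGF axis was 0.13 within the DPs and -0.80 within the MHs. GHR, the growth hormone receptor, was at 67.5 to 232 CPM in the cartilage-rich libraries, 58.6 and 176 in the cartilage-poor DPs and 264.5 to 336 in the cartilage-poor MHs. Of 30 immediate early genes (median -0.15), NR4A1, a nuclear receptor induced within minutes of a stimulus, was separated and lower, beside 0.428% of all genes. NR4A1 was at 2.76 to 5.86 against 7.45 to 20.7 CPM (-1.45 ± 0.25). The 12 pancreatic genes that passed had a median of 2.995, which was 0.14 without MHLBA1. PRL, the gene of the pituitary hormone prolactin, was separated and higher at low levels, 0.849 to 10.4 against 0.0743 to 0.488 CPM, while GH and POMC of the same gland overlapped. Pituitaries of the same horses were part of the series; how far these few reads come from bone was not tested.

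Other separated genes with the largest differences were on no list. Among the higher ones, IL17B, a cytokine of the interleukin 17 family made by chondrocytes, was at 24.3 CPM at the median of the cartilage-rich libraries against 0.0924 at that of the cartilage-poor ones (6.03 ± 0.88). PPP1R1B, a phosphatase inhibitor best known from the brain, was at a median of 27.4 against 0.202 CPM (5.58 ± 0.69), and WISP3 (CCN6), a matrix-associated growth factor in which mutations cause a cartilage disease, at 15.8 against 0.231 (5.08 ± 0.68). The potassium channel gene KCNQ3 (4.51), the fatty acid hydroxylase gene FA2H (4.38), the protease inhibitor gene SLPI (4.33) and the glycerol channel gene AQP9 (4.18) followed. These 4 genes, and WWP2, ELN and FGF7 below, were picked after their values were seen. WWP2, a ubiquitin ligase gene that hosts a microRNA active in chondrocytes, differed by 2.72.

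Among the lower genes, MEOX2, a homeobox gene of mesenchyme and vessels, was at a median of 2.16 CPM in the cartilage-rich and 24.4 in the cartilage-poor libraries (-3.28 ± 0.72). CYP2F1, a cytochrome P450 gene known from the lung, was at 8.27 against 62.8 (-3.10 ± 0.56), and ASPA, which splits N-acetylaspartate, at 4.15 against 22.2 (-2.19 ± 0.33). The further genes named by their size were FAM83A, IYD, GNAT3, CALHM3, VSTM2B, GRB14, KIAA1024, IQUB and INOS, whose differences ranged from -2.82 to -1.85. The most abundant of them, GRB14, an inhibitor of insulin receptor signalling, was at medians of 3.525 and 15.01 CPM. Among these further genes, GNAT3, KIAA1024, IQUB and INOS differed by under 2-fold on log2(RPKM + 1), and GRB14 overlapped with DESeq2 scaling. No cartilage-rich library had more than 4 reads of KIAA1024, 6 of GNAT3, 7 of IYD or 15 of FAM83A and IQUB. The size of their differences therefore depends on the prior count. The elastin gene ELN (-1.27) and FGF7, a growth factor of stromal cells (-1.22), were lower as well.

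The label comparisons, whose groups do not depend on COL2A1, were tested with edgeR's quasi-likelihood test on all 12 libraries with breed and stage as terms. Between DPs and MHs 2746 genes passed P under 0.05 with over 2-fold change, 1638 higher in DPs (11.1% of all compared) and 1108 lower (7.52%), and 2484 (16.9%) had an adjusted p under 0.05. Of the 97 genes higher in the cartilage-rich libraries 47 (48.5%) were also higher in DPs by this rule, which is 2.87% of the 1638, and of the 63 lower ones 24 (38.1%) were also lower in DPs, 2.17% of the 1108. The 2 comparisons use the same 12 libraries, so these counts are not independent of each other. Of the 20 cartilage matrix genes 17 were higher in DPs and 14 had an adjusted p under 0.05, with a median of 5.28 on the log2 scale. COL2A1 itself was higher in DPs by 7.27 ± 2.63 (SE) with an adjusted p of 0.0743 in edgeR, and ACAN by 6.06 with an adjusted p of 0.0174. COL11A2, which was high in all DP libraries of either class, was higher by 3.36 (adjusted p = 0.00496, edgeR).

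Other lists moved with breed as well. In DPs 26 of 28 cell cycle, 19 of 21 neutrophil, 16 of 18 erythroid and 15 of 20 osteoblast genes were higher by the rule above, and 15 of 20 skeletal muscle genes were lower, against 11.1% and 7.52% of all genes. The cell cycle sum was 629 to 4131 CPM in DPs and 373 to 616 in MHs. The erythroid sum was 53.5 to 64.4 CPM in DPLBA1, DPLBA3 and DPLBJ1, close to the MHs (33.5 to 59.4). The neutrophil sum of DPLBJ1 (472 CPM) was below that of every MH (653 to 889). The muscle sum was 641 and 825 CPM in MHLBA3 and MHLBJ1 and at most 94.2 elsewhere. A second fit held the cartilage class, itself set by COL2A1 in these libraries, as a further term. In it 1472 genes were higher in DPs (9.99%) and 1085 lower (7.36%). The 20 cartilage matrix genes then had a median of 2.57 in place of 5.28. COL2A1 was higher by 2.53 and MATN3, at 5.90 without the class term, by 1.94. Since COL2A1 set the class and the other matrix genes share its libraries, these values are descriptions without a test. The osteoblast genes had a median of 2.09 in place of 1.79, with 17 of 20 higher, and the cell cycle genes one of 2.61 in place of 3.04, with 23 of 28 higher. By the same rule 18 of 21 neutrophil and 13 of 18 erythroid genes were higher, and 8 of 20 skeletal muscle genes were lower. So were 11 of 12 pancreatic genes (median -12.9), whose reads lie almost wholly in MHLBA1. The class term rests on 2 cartilage-poor DPs and 1 cartilage-rich MH, and COL2A1 in these libraries set it. All counts and medians of this second fit are therefore descriptions without a test, for every list. Between juveniles and adults 303 genes passed (2.06%), 97 higher (0.658%) and 206 lower (1.40%) in juveniles. None had an adjusted p under 0.05 in edgeR, the lowest being 0.209, and 703 had an unadjusted P under 0.05. Of the cartilage matrix genes, 0 were higher and 3 lower in juveniles by the rule with unadjusted P.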

How the data were processed

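RNA of 12 long bone epiphyses was sequenced (directional libraries after removal of ribosomal RNA). The labels name paired-end reads of an Illumina NextSeq 500, and the submitters' processing notes name TopHat2 and edgeR, whereas the study's methods describe single-end reads of a GAIIx system, Btrim, the EquCab 3.0 genome and Salmon, so the software behind the tables is not settled here. The authors deposited raw read counts per gene, which were used without rounding, and RPKM, scaled by the authors for gene length and library size. The RPKM served for levels between genes, for some levels between libraries and for checks under another scaling, while the main comparisons used the counts. Neither table held columns of the authors' own comparisons.

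From the counts, genes were kept by edgeR's filterByExpr (minimum count 10, groups of breed and stage), scaled by TMM and converted to log2 CPM with a prior count of 2. Cartilage-rich against cartilage-poor was described by differences, SE and non-overlap with over 2-fold difference, without a test. Breed and stage were tested by edgeR's quasi-likelihood test (~ breed + stage) with Benjamini-Hochberg adjustment, and the classes by Fisher's exact test. Horses are the replicates. The scripts were tested on simulated counts. R 4.3.3, edgeR 4.0.16, limma 3.58.1 and DESeq2 1.42.0 were used.

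The groups and gene lists were chosen with earlier results of these data known, and the pancreatic and pituitary lists and gene aliases were added after seeing the tables. Named were the 15 higher and 15 lower separated genes of largest difference that kept their direction within the DPs and without MHLBA1, separated list members and the 4 most abundant members of a list; other genes were named to complete a role. Gene symbols are those of the deposited tables. Sequences and coordinates were not used here. Of the growth plate list, 1 member, counted in the list's totals, is not reported here by name or value.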

Additional observations from a re-analysis of the deposited data

Results flagged for a closer look

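Within a class, a library was set apart where its distance to the nearest other library was large against the range of the class. This is Dixon's criterion, which chance alone meets in about 1 of 20 groups. It was applied in both classes to each gene list and to each gene named for the size of its difference. Several of the flags below may thus be met by chance alone. DPLBA2 was the highest cartilage-poor library on the log2 scale of summed CPM for the erythroid genes (8.11, next 5.89), the neutrophil genes (11.3, next 9.80), the megakaryocyte and platelet genes (6.70, next 4.62), the cell cycle genes (10.4, next 9.30) and the other collagens (14.2, next 12.4). It was also the highest of its class for the log2 CPM of COL10A1 (3.95, next -1.11) and CLEC3A (-1.06, next -3.19). The cartilage-poor library with the lowest distance to the cartilage-rich ones in COL2A1 thus stood apart from its class in 5 lists and 2 genes, and without it 254 genes were separated as higher and 182 as lower in place of 97 and 63.

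Among the other cartilage-poor libraries, DPLBJ1 was highest for the growth plate signals (10.1, next 9.36) and MHLBJ2 for the marrow stromal genes (10.7, next 10.3). Among the cartilage-rich libraries MHLBA1 was lowest for the monocyte and macrophage genes (8.66, next 11.1) and highest for the pancreatic genes (18.3, next 4.56). The pancreatic genes, which the text of the study does not name, held 20.0% of the reads of MHLBA1 against at most 0.00238% in the other long bone libraries.

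In 2 lists the summed level of every cartilage-rich DP lay on one side of every cartilage-poor DP, while that of MHLBA1 lay on the opposite side of every cartilage-poor MH. Medians of further lists also differed in sign between the breeds. The summed level of the T and NK cell genes was higher in the cartilage-rich libraries by 0.97 (log2) within the DPs and lower within the MHs (-0.57), and that of hypoxia and glycolysis genes differed by 0.42 and -0.54. The MH values rest on MHLBA1 alone, and the difference between the breeds was not tested.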

How the results depend on the processing

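The count of genes separated as higher in the cartilage-rich libraries (97) was 50 with plain CPM in place of TMM scaling, 46 on log2(RPKM + 1), 590 in DPs alone, 1891 in MHs alone, 327 in adults and 1669 in juveniles, and leaving out 1 library gave 102 to 410. The count of lower genes (63) was 157 with plain CPM, 626 in DPs, 1812 in MHs, 239 in adults and 1174 in juveniles, and 65 to 217 leaving out 1 library. Fewer libraries make non-overlap easier, so the subset counts are larger by construction. Counts moved by over 1.5 times without DPLBA1 (133 lower), DPLBA2 (254 higher, 182 lower), DPLBA3 (109 lower), DPLBJ2 (148 higher) and MHLBA1 (410 and 217). Plain CPM moved the median difference of all genes from -0.02 to -0.27, which turned the balance of higher and lower genes. The DP against MH count (2746) was 1557 with limma on log2(RPKM + 1) and 2627 to 3185 leaving out 1 library. The juvenile against adult count (303) was 805 without a filter on low counts, 43 with limma and 0 at an adjusted p under 0.05, and 278 to 599 leaving out 1 library (599 without DPLBJ1). The Fisher p was 0.0606 to 0.242 for breed and 0.545 to 1 for stage leaving out 1 library. With the replicate number as a block, 2649 genes passed for breed and 211 for stage, but the numbers do not pair the horses: over 18 pairs of same-numbered libraries the correlation ran from -0.312 to 0.169, with 2 pairs over 0.1, and 2 libraries correlated best with their own number. None of the 30 genes named for the size of their difference reversed direction under any alternative run. This supports nothing, since they were chosen as separated genes that kept their direction within the DPs and without MHLBA1. Genes not chosen in this way did reverse, such as FABP4 (-1.07, and 0.16 within the DPs) and GHR (-0.95, and 0.12). The median of the osteoblast list was 0.12 without DPLBJ1, and those of lists within 0.5 of 0 often changed sign. Depth limits genes such as CYTL1, with at most 3 reads in a cartilage-poor library.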

Other observations

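The row of FAM117A held very high counts in some pieces. It had 35641 reads in MHLBA1 and 2074896 in DPLBA2, with 981780 in DPLBJ1 and 107492 to 607222 in the cartilage-rich DPs. No row carried the symbol COL1A1, and COL1A2, like FAM117A, was highest in DPLBA2 (63830 CPM) and DPLBJ1 (63340 CPM).

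Reads of genes foreign to bone were found in single libraries besides those of the pancreatic genes in MHLBA1. TTR, the gene of the thyroid hormone carrier transthyretin, had 2573 reads in MHLBA2, 796 in MHLBA1 and 0 to 27 in the other 10 long bone libraries. CHGA, the gene of the granule protein chromogranin A of endocrine cells, had 1438 reads in MHLBA1, 446 in DPLBA3 and 0 to 93 elsewhere. The summed CPM of GH, PRL and POMC was 65.4 in DPLBA3, 25.0 in DPLBJ2 and 0.323 to 6.54 in the other 10 libraries. Of the 97 genes separated as higher, 3 had 0 reads in DPLBA2, and none of the 63 lower ones had.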
